A study of Drosophila melanogaster with 4 samples.

Results

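Polycomb (Pc) was mapped by ChIP-seq over the Antennapedia complex, the Hox gene cluster for the head and the front of the thorax, in wild-type Oregon-R embryos of Drosophila melanogaster. The complex was taken as the stretch of 3R from 2480000 to 2880000 (FlyBase r5, 400 kb, 1.43% of the arm), and its members were all deposited enriched regions that overlapped it. There were 19 such regions of 1189 in ChIP replicate 1 and 25 of 1405 in ChIP replicate 2, and none of them crossed an end of the stretch. Both groups of the series, Pc ChIP and input, were whole embryos labelled 14 to 16 h, while the protocol text speaks of embryos up to 16 h old. The embryos came from population cages and were fixed with 1.8% formaldehyde. Of the 2 ChIP and 2 input libraries, the ChIP libraries each had a list of regions with a score per region. The inputs had no values here, and with no read counts the depth of the libraries was unknown. As there was 1 condition with 2 libraries, which the labels do not trace to separate embryo collections, nothing below carries a p-value. Values are given for each library.

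Hox genes encode homeodomain transcription factors that give body segments their identity, and their order along the chromosome follows the order of the body parts they shape. Pc, a chromodomain protein, belongs to Polycomb repressive complex 1. It binds histone H3 trimethylated at a lysine of its tail and helps to keep Hox genes silent in the segments where they must stay off. A whole embryo mixes cells in which a given Hox gene is on with cells in which it is off. Fewer cells with Pc at a locus and less Pc per cell therefore cannot be told apart here.

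The genes of the complex have unlike roles. The homeotic members are lab (labial), which acts in the front of the head and in the midgut, pb (proboscipedia), needed for the adult mouthparts, Dfd (Deformed), for the mandibular and maxillary segments, Scr (Sex combs reduced), for the labial segment and the prothorax, and Antp (Antennapedia), for the thorax. The other members are homeobox genes that no longer act as homeotic genes. They are bcd (bicoid), whose maternal product patterns the front of the embryo, zen (zerknüllt), for the dorsal extraembryonic tissue, and ftz (fushi tarazu), a pair-rule segmentation gene. All 8 were matched by symbol in a gene table of Release 6, where they follow each other along 3R as lab, pb, zen, bcd, Dfd, Scr, ftz and Antp. Another 12 protein-coding genes of the table lie between lab and Antp. Among them are Edg84A and 7 genes named Ccp84A, all between lab and pb, then zen2, a close relative of zen, and Ama (Amalgam), which encodes an immunoglobulin-domain protein. The microRNA gene mir-993 lies between Ama and Dfd, and mir-10 lies between Dfd and Scr. The table gave names and order only. The lists hold no gene names, and no region was assigned to a gene, since gene positions of FlyBase r5 were not used here. Arm positions of 3R count from the centromere side, where lab lies, towards Antp.

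Polycomb regions filled most of the complex. They covered 357.0 kb in replicate 1 (89.3% of the stretch) and 344.6 kb in replicate 2 (86.1%). On the rest of 3R they covered 8.03% and 8.02%. Although the complex makes up 1.43% of the arm, it held 13.9% of the arm's covered bases in replicate 1 and 13.5% in replicate 2. When 3R was laid out in 69 stretches of 400 kb with the complex as one of them, it had the highest covered share in both libraries. The next stretch, which holds the Bithorax complex block, was covered to 83.9% and 83.1%. After it the shares dropped to 37.3% and 37.5%, and the median of the other 68 stretches was 1.59% and 2.51%. No region of replicate 1 lay in 16 of those 68 stretches, and no region of replicate 2 in 7 of them. The stretches were counted off from the ends of the complex, so other blocks could be cut between neighbouring stretches. A replicate 1 block of 211.5 kb, from 17201708 to 17413210, was split between stretches covered to 21.1% and 29.9%. Ranks and the drop in share depend in part on this layout.

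**Figure D1:**
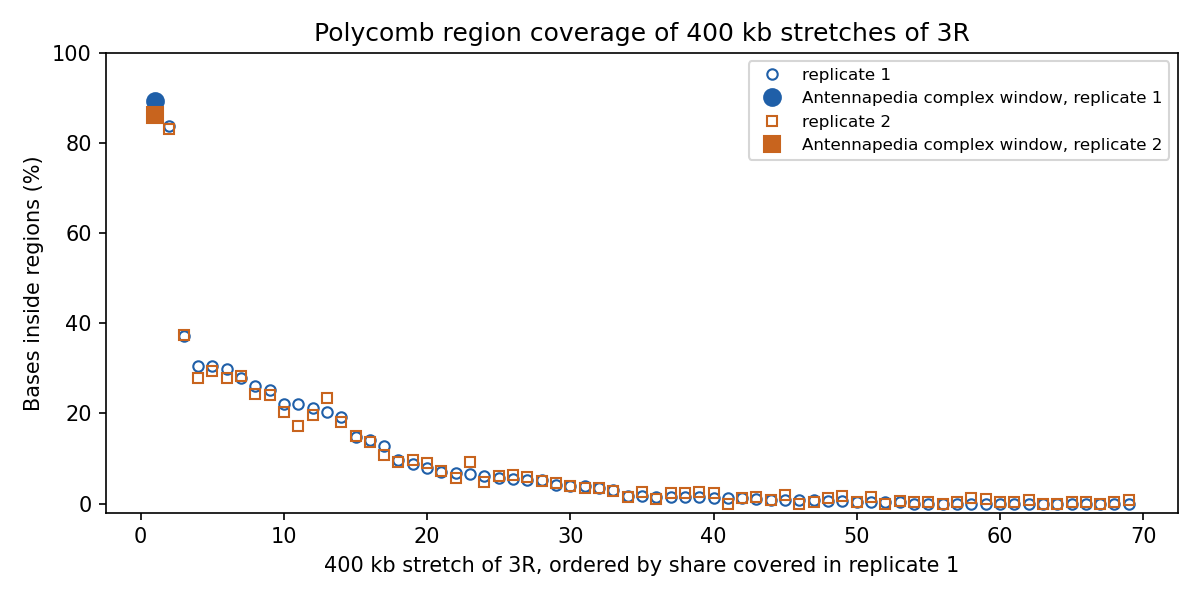
Share of bases inside Polycomb regions (vertical axis, percent) for 69 stretches of 400 kb on 3R, ordered by the share in replicate 1. Circles are ChIP replicate 1 and squares replicate 2; filled symbols mark the Antennapedia complex, at 89.3% and 86.1%, and the stretch of the Bithorax complex follows at 83.9% and 83.1%.

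In both lists the complex was called as a string of regions with a break near its lab end, and not as 1 continuous region. With depth and threshold unknown, a gap between regions cannot be told apart from a stretch under the threshold. Regions under 5 kb apart, when joined, gave a short group at the low-coordinate end and a long block behind it in both libraries. In replicate 2 each held a gap just under this limit, of 4909 bases in the short group and 4905 bases in the block. A slightly lower limit would part them there. The short group ran from 2486790 to 2519366 in replicate 1 (32.6 kb, 3 regions) and from 2487325 to 2522143 in replicate 2 (34.8 kb, 3 regions). Its main part was a single region of 26.6 kb with a score of 1.31 in replicate 1 and of 25.9 kb with a score of 1.33 in replicate 2. The ends of this region lay 535 and 83 bases apart between the libraries. The score is the authors' own value per region, on a scale that is not stated. It is compared within a list, and between the lists only where overlapping regions are set side by side.

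A long stretch without any region separated the short group from the rest. The gap measured 13.6 kb in replicate 1 and 16.5 kb in replicate 2. Its part that was free in both lists ran from 2522144 to 2532986 (10.8 kb), which was 55.9% of all sequence between the first and the last region of the complex that was free in both. Of the 5 longest stretches free in both lists, the others measured 3.00 kb, 1.48 kb, 1.17 kb and 0.803 kb.

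**Figure D2:**
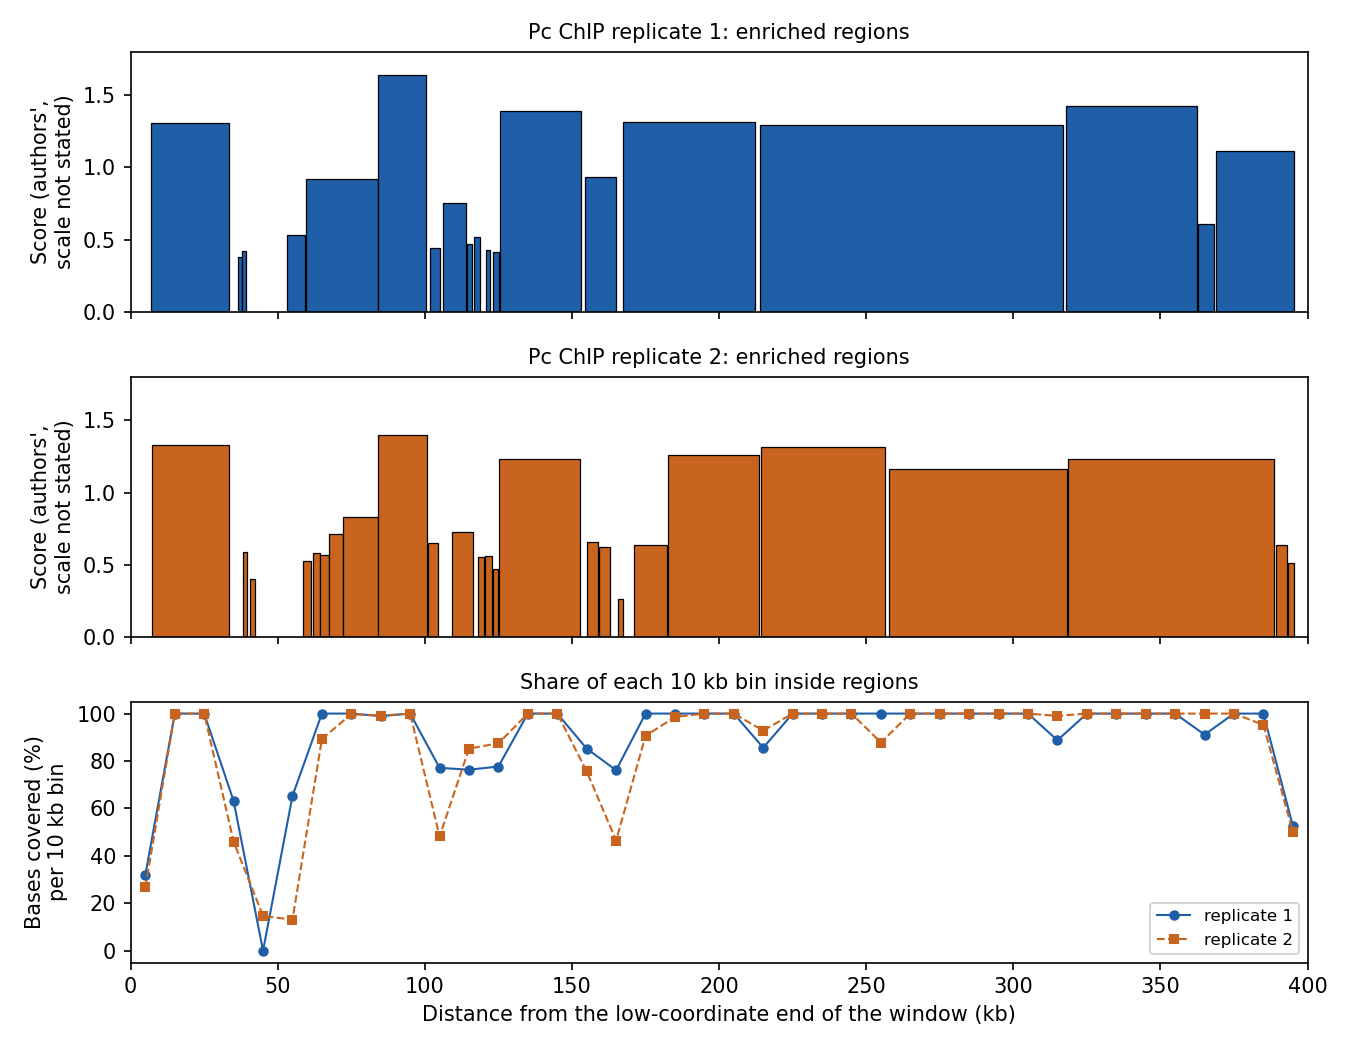
Polycomb regions over the Antennapedia complex, with distance from the low-coordinate end of the 400 kb stretch on the horizontal axis (kb). In the upper panels each box is a region and its height is the authors' score, with 19 regions in replicate 1 and 25 in replicate 2. The lower panel gives the covered share of each 10 kb bin, which was lowest between 40 and 50 kb in replicate 1 (0.0%) and between 50 and 60 kb in replicate 2 (13.1%), and mostly 100% from 220 kb to 390 kb.

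Regions were more numerous and mostly narrower in the low-coordinate part of the complex than in its high-coordinate part. In the low-coordinate 200 kb of the complex, replicate 1 had 15 regions with a median width of 6.12 kb, and replicate 2 had 20 with a median of 3.50 kb. In the high-coordinate 200 kb, replicate 1 had 4 regions with a median width of 35.5 kb, and replicate 2 had 5 with a median of 42.0 kb. Of the 9 regions of 10 kb or more in each list, 6 were counted in the low-coordinate part and 3, which included the widest, in the high-coordinate part. The last of these 6 crossed into the high-coordinate part in each list. It ran from 2647285 to 2692335 in replicate 1 and from 2662569 to 2693695 in replicate 2. Counts, widths and scores take it whole in the low part, while covered shares divide it by base. The covered share rose from 82.6% to 95.9% between these parts in replicate 1 and from 76.0% to 96.3% in replicate 2. The median score was 0.531 in the low part and 1.20 in the high part for replicate 1, and 0.630 and 1.16 for replicate 2. In both libraries the regions towards the Antp end were thus fewer, and their median width and score were higher.

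The highest score of the complex sat on a region of moderate width in its low-coordinate part. In replicate 1 it ran from 2564235 to 2580217 (16.0 kb) and scored 1.64, rank 5 of the 300 regions of 3R. The region of replicate 2 ran from 2564228 to 2580869 (16.6 kb) and scored 1.40, rank 14 of 333. It was the highest in the complex in both lists. The starts lay 7 bases apart and the ends 652 bases apart.

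The region just before this peak was 1 piece in one library and several in the other. Replicate 1 had a single region from 2539589 to 2564130 (24.5 kb, score 0.921). Replicate 2 had 5 regions over the same sequence, with scores from 0.524 to 0.829, and they covered 95.6% of it. The last of these 5, from 2552329 to 2564137 (11.8 kb), ended 7 bases from the end of the replicate 1 region. A gap of 104 bases in replicate 1 and of 90 bases in replicate 2 parted it from the peak. This was the one gap of the complex, of 18 in replicate 1 and 24 in replicate 2, whose edges both lay within 10 bases of those of a gap in the other list. On the rest of 3R, 0 of 281 gaps in replicate 1 (0.0%) and 0 of 308 in replicate 2 (0.0%) met that condition. The limit of 10 bases was chosen after this gap was seen, so the contrast is a description. Within 500 bases, 2 of 18 gaps in replicate 1 and 2 of 24 in replicate 2 matched, against 5.69% and 5.19% on the rest of 3R.

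After the peak came a finely divided stretch. Between the peak and the next broad region, replicate 1 listed 6 regions of 1.46 to 7.85 kb with scores from 0.418 to 0.753. Over the same stretch, replicate 2 listed 5 regions of 1.47 to 7.19 kb with scores from 0.474 to 0.726. Replicate 2 covered 2 of the 6 replicate 1 regions fully and the others in part, down to 33.1% for the region from 2596568 to 2598678. This stretch ended at a broad region from 2605550 to 2633100 in replicate 1 (27.6 kb, score 1.39) and from 2605238 to 2632855 in replicate 2 (27.6 kb, score 1.23). Its starts lay 312 bases apart and its ends 245 bases apart.

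Next to it, replicate 1 had a region from 2634578 to 2644895 (10.3 kb, score 0.931), of which replicate 2 covered 74.2% with regions of 3.91 kb (score 0.659) and 3.75 kb (score 0.622). That was the lowest covered share among the regions of 10 kb or more in either list. The following replicate 1 region ran from 2647285 to 2692335 (45.1 kb, score 1.31). Replicate 2 split the same sequence into a low-scoring region from 2650940 to 2662423 (11.5 kb, score 0.639) and a high-scoring one from 2662569 to 2693695 (31.1 kb, score 1.26). In replicate 1 the whole stretch carried 1 score, while in replicate 2 the low-coordinate part scored well below the rest.

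The Antp end of the complex was covered almost without a break. From the last stretch free in both lists, which is 79 bases long and ends at 2693774, every base up to the last region end was inside a region of at least one list, over 181.5 kb. Replicate 1 divided this sequence into 4 regions of 103.0 kb (score 1.29), 44.6 kb (1.42), 5.46 kb (0.610) and 26.5 kb (1.11). Replicate 2 divided it into regions of 42.0 kb (score 1.32), 60.8 kb (1.16), 70.2 kb (1.23), 4.00 kb (0.636) and 1.90 kb (0.511). The 103.0 kb region ranked 2 by width among the 300 regions of 3R in replicate 1, and the 70.2 kb region ranked 3 among 333 in replicate 2. Some breaks lay close together, such as a gap of 1.13 kb in replicate 1 and one of 97 bases in replicate 2 that were 511 bases apart. Others did not, and the replicate 2 gap of 1.22 kb inside the 103.0 kb region lay 42607 bases from any gap of replicate 1. The outer end was shared, at 2875271 in replicate 1 and 2875323 in replicate 2, 52 bases apart.

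Outside the complex the sides were unlike. On the lab side no region lay between 2086430 and 2486789 in either list, a stretch of 400.4 kb that ranked 13 by length among the 380 stretches of 3R free in both lists. On the Antp side the next region followed after 12.7 kb in replicate 1 (1.70 kb wide, score 0.410) and after 14.4 kb in replicate 2 (1.40 kb wide, score 0.536). Those 2 regions did not overlap, since that of replicate 1 ended at 2889626 and that of replicate 2 began at 2889712.

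Gaps inside the complex were short. Their median was 892 bases in replicate 1 (18 gaps, 50 bases to 13.6 kb) and 482 bases in replicate 2 (24 gaps, 21 bases to 16.5 kb). Elsewhere on 3R the median gap was 6472 bases in replicate 1 and 9827 bases in replicate 2. Gaps under 1 kb made up 55.6% and 62.5% of the gaps of the complex, against 21.7% and 19.2% on the rest of the arm. The libraries shared the place of some of these short gaps, at shares near those of the rest of the arm. Of the gaps under 1 kb in the complex, 6 of 10 in replicate 1 (60.0%) and 6 of 15 in replicate 2 (40.0%) overlapped a gap of the other list. The corresponding shares on the rest of 3R were 49.2% of 61 and 40.7% of 59. The differences were not tested, and far less sequence is free of regions in the complex than elsewhere.

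**Figure D3:**
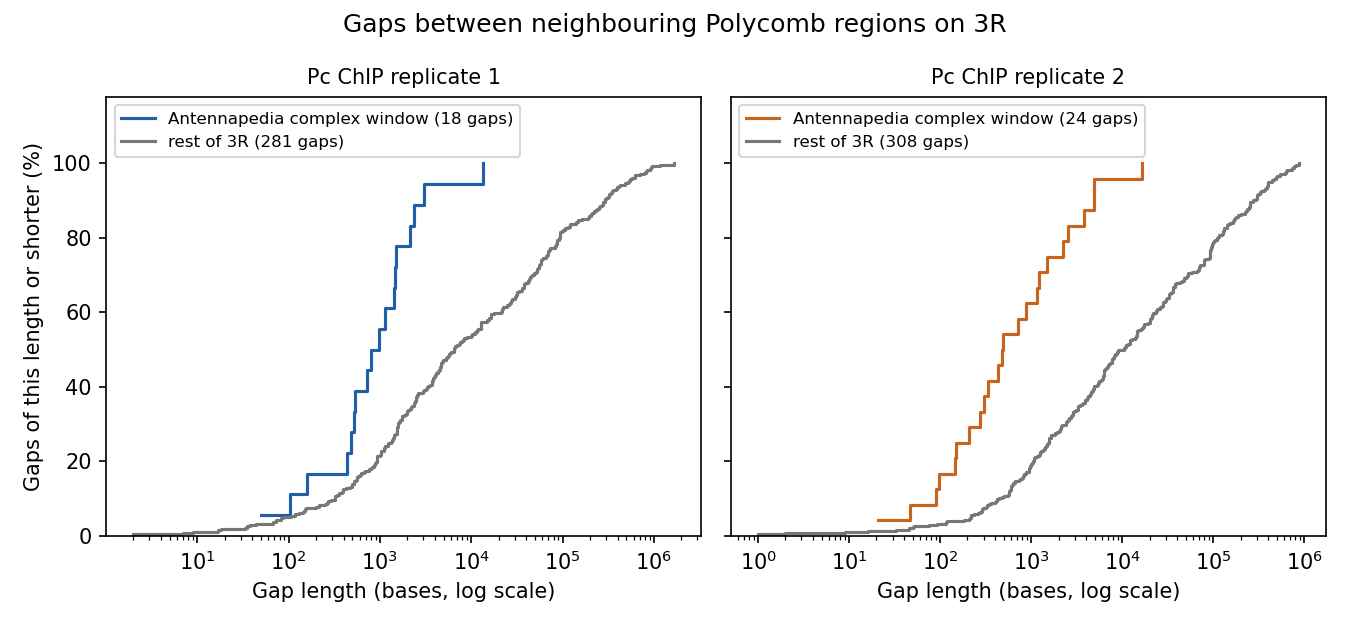
Cumulative share of gaps (vertical axis, percent) by length in bases (horizontal log axis) in ChIP replicate 1 (left) and replicate 2 (right). Coloured lines are gaps inside the Antennapedia complex, with medians of 892 and 482 bases, and grey lines are gaps on the rest of 3R, with medians of 6472 and 9827 bases.

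Regions of the complex were wider than most regions of the arm. Their median width was 7848 bases in replicate 1 and 3913 bases in replicate 2, against 2036 and 1982 bases on the rest of 3R. Regions of 10 kb or more numbered 9 in each list of the complex, 47.4% and 36.0% of its regions, against 17.4% and 16.9% on the rest of the arm. They held 90.8% of the covered bases of the complex in replicate 1 and 86.3% in replicate 2. On the rest of 3R such regions also held most covered bases, 72.7% and 71.8%. At the other end, 5 of 19 regions in replicate 1 and 5 of 25 in replicate 2 were under 2 kb. On the rest of 3R these were 137 of 281 and 156 of 308.

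Within classes of width, median scores of the complex were close to those of other regions on the same arm. Taking all widths, the complex had a median score of 0.753 in replicate 1 and one of 0.639 in replicate 2, against 0.516 and 0.569 on the rest of 3R. Among regions of 10 kb or more the medians were 1.31 in the complex and 1.25 elsewhere in replicate 1, and 1.23 and 1.18 in replicate 2. The complex ranged from 0.921 to 1.64 there in replicate 1, inside the 0.567 to 1.83 of the other wide regions. For regions of 2 to under 10 kb they were 0.531 in the complex and 0.580 elsewhere in replicate 1, and 0.622 and 0.626 in replicate 2. For regions under 2 kb replicate 1 had medians of 0.426 in the complex and 0.455 elsewhere, and replicate 2 had 0.474 and 0.516. Over all regions of 5 kb or more, which mix widths, the median of the complex was higher by 0.0978 in replicate 1 and 0.173 in replicate 2. Wider regions of the complex had higher scores, with Spearman's rho of 0.90 across its 19 regions in replicate 1 and across its 25 regions in replicate 2. These regions share a library and are not independent. The corresponding rho was 0.80 over the 281 other regions of 3R in replicate 1 and 0.74 over the 308 in replicate 2.

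**Figure D4:**
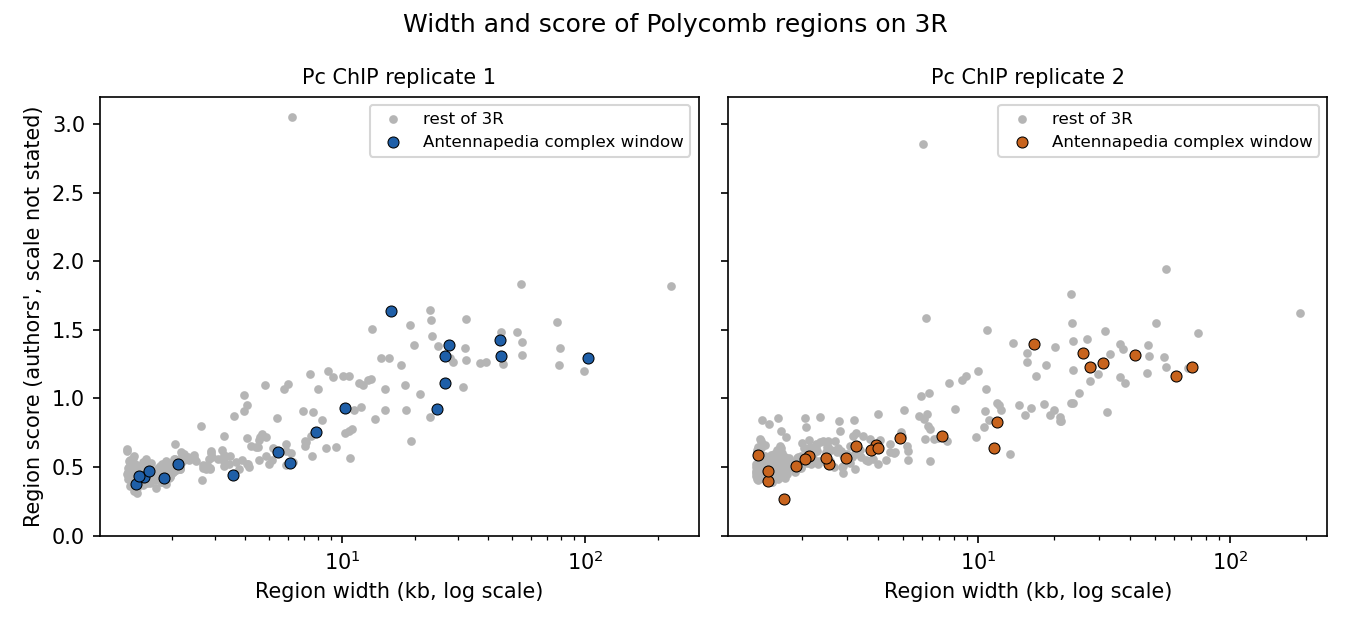
Region width (horizontal log axis, kb) and the authors' score (vertical axis) for 3R in ChIP replicate 1 (left) and replicate 2 (right). Coloured points are the 19 and 25 regions of the Antennapedia complex, which lie among the 281 and 308 other regions (grey), except 1 replicate 2 region with the low score of 0.269.

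The same sequence of the complex was covered in both libraries to a large extent. Shared bases came to 332.5 kb, or 93.1% of what replicate 1 covered and 96.5% of what replicate 2 covered. On the rest of 3R the shares were 86.0% and 86.0%. The Jaccard index, the bases in both lists over the bases in either, was 90.1% in the complex and 75.4% on the rest of the arm. These measures start high where lists cover 89.3% and 86.1% of the sequence, against 8.03% and 8.02% elsewhere, so the comparison with the rest of the arm is no sign of closer agreement in the complex. Among the 65 stretches of 400 kb with any region, the complex ranked 5 by this index, and the similarly covered stretch of the Bithorax complex reached 98.6%. Another 24.5 kb was covered in replicate 1 alone and 12.1 kb in replicate 2 alone. Of 40 bins of 10 kb, 32 differed by less than 10 percentage points in covered share. The largest difference, 52.2 points, was in the bin from 50 to 60 kb, at the edge of the long gap, with 65.3% covered in replicate 1 and 13.1% in replicate 2. Across the 40 bins, covered shares correlated between the libraries with a Spearman's rho of 0.81 and a Pearson's r of 0.88. Neighbouring bins share regions, so these values describe the lists.

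Nearly all regions of the complex had a counterpart, as is likely for any region placed in so fully covered a stretch. In replicate 1, 18 of 19 shared at least 1 base with a replicate 2 region, against 63.3% on the rest of 3R. In replicate 2, 23 of 25 overlapped a replicate 1 region, against 60.7%. Width moved with this difference. All 9 regions of 10 kb or more of the complex in each list were found, as were all 49 and all 52 on the rest of the arm (100.0% in both lists). Of the regions under 2 kb, 4 of 5 and 3 of 5 in the complex were found, against 34.3% and 30.1% elsewhere, in a count of 5 regions in each list of the complex. Both width and the share of sequence covered by the other list, 86.1% and 89.3% in the complex against 8.02% and 8.03% elsewhere, moved with these counts, and their part was not tested.

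Over all widths, a counterpart of like extent was no rarer in the complex than on the rest of 3R. It was rarer among regions of 10 kb or more. Region ends matched about as often as on the rest of 3R. At least 50% of both regions was then required to overlap. Replicate 1 kept a counterpart for 11 of its 19 regions of the complex (57.9%) and replicate 2 for 11 of its 25 (44.0%). The shares on the rest of 3R were 44.8% and 40.9%. Among regions of 10 kb or more, 6 of 9 in each list met this condition, against 98.0% and 90.4% elsewhere. The share was lower in the complex, in a count of 9, and the difference was not tested. Region ends with the same kind of end within 500 bases in the other list numbered 12 of 38 in replicate 1 (31.6%) and 12 of 50 in replicate 2 (24.0%). On the rest of the arm this held for 26.2% and 23.9% of the ends.

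The regions without a counterpart numbered 3, and all were narrow with low scores. In replicate 1 it was the region from 2516354 to 2517778 (1.43 kb, score 0.380), 0.397 kb from a replicate 2 region. The first of replicate 2 ran from 2520679 to 2522143 (1.47 kb, score 0.402) and lay 1.31 kb from a replicate 1 region. The other ran from 2645473 to 2647170 (1.70 kb, score 0.269). The last had the lowest score of the 333 regions of 3R in its list and lay 114 bases from a replicate 1 region. On the rest of 3R, 178 of 281 regions in replicate 1 and 187 of 308 in replicate 2 had a counterpart. Those included all regions of 10 kb or more, so regions without a counterpart were under 10 kb there too.

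Scores could be set side by side in 8 pairs, in which neither region overlapped any further one. The 3 wide pairs scored 1.31 and 1.33, 1.64 and 1.40, and 1.39 and 1.23, with replicate 1 first. All 5 narrow pairs scored lower in replicate 1, with differences of 0.0372 to 0.205. On the rest of 3R the same held for 71.6% of 74 such pairs under 10 kb, so lower scores of narrow regions in replicate 1 were common along the arm. Across the 8 pairs, Spearman's rho came to 0.81 and Pearson's r to 0.98, over scores that fall into a wide and a narrow group.

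The block of the Antennapedia complex was divided into more regions than that of the Bithorax complex, the other Hox cluster of 3R, which holds Ubx, abd-A and Abd-B. These blocks, joined from regions under 5 kb apart, were the longest of either list, and they were similar in length. In replicate 2 the Antennapedia block held a gap of 4905 bases, so its length and region count in that list depend on the limit. The Antennapedia block spanned 342.3 kb with 16 regions in replicate 1 and 336.6 kb with 22 regions in replicate 2. The Bithorax block spanned 332.3 kb with 3 regions and 332.0 kb with 4 regions. That is 4.67 and 6.54 regions per 100 kb of block for the Antennapedia complex, and 0.903 and 1.20 for the Bithorax complex, a ratio of 5.18 and 5.42. Joining only under 1 kb broke up both blocks, and the ratio then compares the longest Antennapedia piece with the Bithorax piece. In replicate 1 each piece was a single region, of 103.0 kb and 227.2 kb, so the ratio of 2.21 reflects widths alone. In replicate 2 the Bithorax piece was a single region of 189.35 kb, and the ratio was 5.50. Neither value measures the division of the whole blocks. The widest region made up 30.1% and 20.8% of the Antennapedia block, and 68.4% and 57.0% of the Bithorax block. Weighted by width, the mean score of the Antennapedia block was 1.22 and 1.12, and that of the Bithorax block 1.62 and 1.44. The Bithorax block was therefore higher-scoring and less divided in both libraries, and covered shares were 95.7% and 93.8% against 98.7% and 98.2%.

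Several other long blocks were more finely divided than the Antennapedia complex. Of the 17 blocks of 100 kb or more in replicate 1 and the 12 in replicate 2, the Antennapedia block ranked 9 and 7 by regions per 100 kb, in a range from 0.903 to 16.6 and from 1.20 to 15.0. By mean score weighted by width it ranked 8 and 7.

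**Figure D5:**
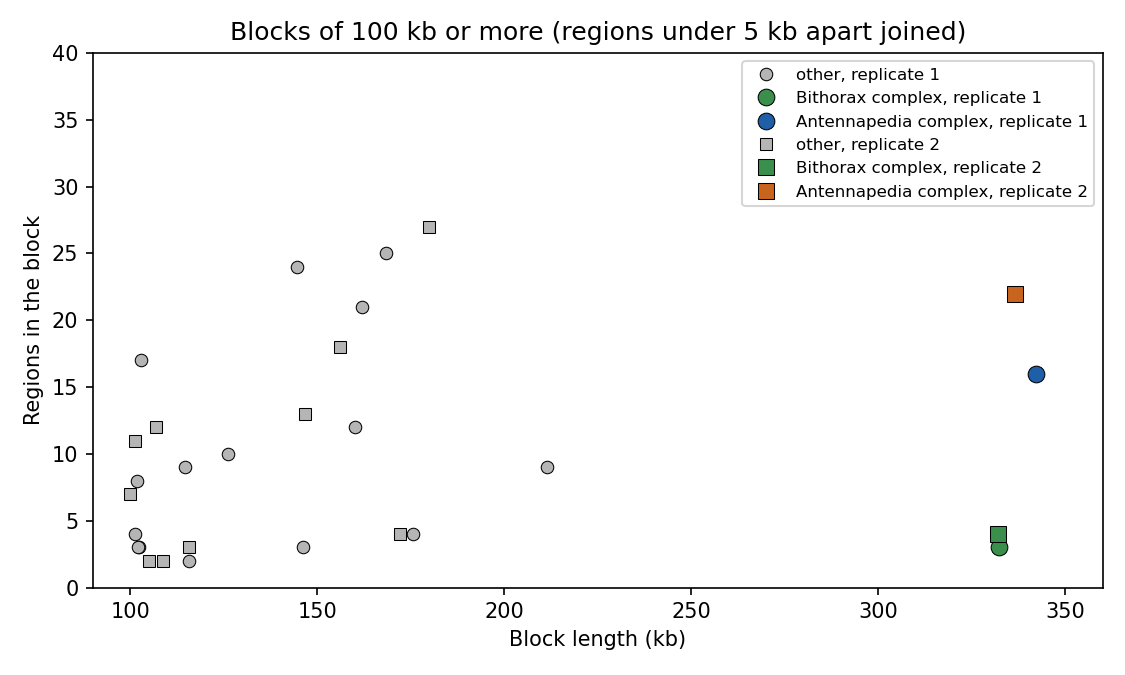
Number of regions (vertical axis) and length in kb (horizontal axis) of blocks of 100 kb or more, 17 in ChIP replicate 1 (circles) and 12 in replicate 2 (squares). The Antennapedia complex had 16 and 22 regions over 342.3 and 336.6 kb, and the Bithorax complex 3 and 4 regions over 332.3 and 332.0 kb.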

How the data were processed

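Reads were aligned with Bowtie 0.12.7, per the submitters' processing notes. Positions are on FlyBase r5, per the file headers. The authors deposited 1 list of enriched regions per ChIP library, with a score for each region. For the calling program, its threshold and the scale of the score, nothing is stated in the labels or headers. Start and end positions, the other values used, were deposited with each region. File names and source names of the ChIP samples carry each other's experiment numbers. Files were taken as GEO links them, and an exchange would swap the replicate names.

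The members, comparisons and lists were chosen with earlier results of these data known. Regions overlapping the 400 kb stretch were taken, and the rest of 3R served as background. Regions of 10 kb or more, the 3 highest-scoring of each list, those in one list only and the first and last were to be named, with the 5 longest shared gaps. Comparing gap and region edges, 200 kb parts and 400 kb stretches was chosen after values were seen. Python 3.11.15 with scipy 1.17.1 and numpy 2.4.6 gave shares, medians and correlations, and matplotlib 3.10.9 the plots. The overlap functions recovered all 20 simulated pairs of lists. Those lists held no split regions, and their gaps were longer than most gaps of the complex, so such cases were not tried. Promoter motifs and proteins had been planned, and sequences were not used here.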

Additional observations from a re-analysis of the deposited data

How the results depend on the processing

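Depth was unknown, so a gap cannot be told apart from a stretch under the threshold. Stretches 20 kb longer at each end were covered to 81.5% in replicate 1 and 78.6% in replicate 2. With the lists reduced to their upper 50% by score, coverage was 84.3% and 81.1%, and the complex held 11 and 15 regions. Of those, 100.0% in replicate 1 and 93.3% in replicate 2 were found in the other reduced list. Joining regions under 1 kb apart left 9 and 10 regions, with 100.0% and 80.0% found in the other list. With 50% of both regions required, 57.9% and 44.0% were found. The Jaccard index was 90.4% (upper 50%), 89.6% (stretch 20 kb shorter at each end) and 89.3% (20 kb longer). The median score less that of the other 3R regions was 0.236 in replicate 1 and 0.0694 in replicate 2. For regions of 5 kb or more it was 0.0978 and 0.173, smaller in replicate 1 and larger in replicate 2. Against all 5 large arms it was 0.211 and 0.0379. All of these differences were positive. Regions per 100 kb of the Antennapedia block over those of the Bithorax block came to 5.18 and 5.42. In replicate 1, joining under 1 kb left a single region of each complex in the comparison, with a ratio of 2.21. The cause of these shifts was not tested. Other than the median score differences, 8 values under the alternatives moved by less than the spread between the libraries, or, for counts, by less than 1.5 times. Some could not or did not change. Counts stayed at 19 and 25 with only regions wholly inside, as none crossed an end. Joining under 10 kb left the ratios at 5.18 and 5.42. The replicate 2 ratio of 5.50 under 1 kb joining is also among the 8, and it does not measure the division of whole blocks. No paired analysis was possible because the inputs had no values here. Without either library, values of the other alone stay as they are, and those that need both (overlaps, shared gaps, pairs, edge distances and correlations) cannot be had.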
